A study of Homo sapiens with 12 samples.

Results

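Transcript levels of 9 genes of MHC class I antigen presentation and the immunoproteasome (*HLA-B*, *HLA-C*, *HLA-E*, *B2M*, *TAP1*, *PSMB8*, *PSMB9*, *PSMB10* and *PSME2*) were compared across 12 RNA-seq libraries of HL-60/S4 cells. The 9 genes were chosen by symbol, as a named pathway, from a table of 58288 genes, with earlier results of these data known. All 9 passed the filter on low counts in every comparison. HL-60/S4 is an established human promyelocytic leukemia line. The undifferentiated promyelocytes carried no inducer, whereas the granulocytes had first been kept for 4 days in 1 µM all-trans retinoic acid (ATRA). Flasks of each form received TNF-α at 16 ng/mL, or as vehicle the same volume of water, for 2 h in medium with added calcium, giving 4 groups (each of the 2 forms with vehicle or with TNF-α) of 3 flasks each, all labelled as passage 8. All 12 libraries thus come from 1 cell line, so p-values measure the spread between flasks. The 2 forms were treated in separate experiments and at different cell densities, and ATRA was present in the granulocyte flasks, so in every comparison between forms the form, the ATRA and the experiment cannot be told apart.

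MHC class I molecules show peptides from inside the cell to CD8 T cells and natural killer cells. Proteins are cut by the proteasome, peptides are pumped into the endoplasmic reticulum by the TAP transporter, and there they are loaded on a heavy chain held by beta-2-microglobulin. In immune cells and under interferon or TNF-α, 3 catalytic proteasome subunits can be replaced by their immunoproteasome forms, which favor peptides suited to class I, and the genes of this pathway are textbook targets of NF-kB, interferon regulatory factors and the transactivator NLRC5.

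In the annotation of the count table (hg38, GENCODE), 6 of the 9 genes lay in the MHC on chromosome 6. The heavy chain genes were *HLA-E* (chr6:30489467-30494205, plus strand), *HLA-C* (chr6:31268749-31272130, minus strand) and *HLA-B* (chr6:31269491-31357188, minus strand). *PSMB8* (chr6:32840717-32844703, minus strand), *TAP1* (chr6:32845209-32853978, minus strand) and *PSMB9* (chr6:32844136-32859585, plus strand) formed 1 cluster. *PSME2* (chr14:24143362-24147570, minus strand), *B2M* (chr15:44711477-44718877, plus strand) and *PSMB10* (chr16:67934502-67937087, minus strand) lay outside the MHC. The model of *HLA-B* reached over *HLA-C* on the same strand, and the 2 genes shared 35 exonic bases (1.15% of the *HLA-B* exons and 1.40% of the *HLA-C* exons). The model of *PSMB9* reached over all of *TAP1* on the opposite strand, without shared exonic bases. *PSMB9* shared 5.66% of its exonic bases with the antisense gene *PSMB8-AS1*, *PSME2* shared 2.15% with a microRNA gene, and *PSMB10* shared 34.8% with ENSG00000261884, in each case on the same strand. Read pairs that fall only in such bases are assigned to neither gene and are missing from the levels given, most of all for *PSMB10*. *HLA-B* and *HLA-C* are moreover separate genes of similar sequence, among the most variable human genes, and their reads were placed on the single reference haplotype. The division of reads among them is therefore uncertain.

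The sequence before the start of 5 of these genes is shown because the results below turn on pairs that are neighbors or similar in sequence. These are *TAP1* and *PSMB9*, which are transcribed away from each other from their RefSeq starts, and *HLA-B* and *HLA-C*. *B2M*, the shared light chain, is given beside them. Each line holds the 250 bases before the RefSeq start of the gene on GRCh38.p14, 5′ to 3′ on the strand of the gene. Capitals mark matches, on either strand, to an NF-kB type or an interferon-stimulated response element (ISRE) type motif. The first is GGG, 2 free bases, TT, 1 free base, CC, and the second GAAA, 2 free bases, GAAA. RefSeq starts differ from those of the count annotation. The *TAP1* and *PSMB9* windows lie inside the gene models given above, and the other windows overlap theirs in part. The windows are chr6:32853705-32853954 for *TAP1*, chr6:32853942-32854191 for *PSMB9*, chr6:31357180-31357429 for *HLA-B*, chr6:31272093-31272342 for *HLA-C* and chr15:44711267-44711516 for *B2M*.
TAP1: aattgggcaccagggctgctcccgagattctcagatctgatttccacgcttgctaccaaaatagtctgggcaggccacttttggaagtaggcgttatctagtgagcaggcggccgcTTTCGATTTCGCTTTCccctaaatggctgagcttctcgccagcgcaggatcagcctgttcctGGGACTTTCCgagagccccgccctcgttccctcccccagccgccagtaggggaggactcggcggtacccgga
PSMB9: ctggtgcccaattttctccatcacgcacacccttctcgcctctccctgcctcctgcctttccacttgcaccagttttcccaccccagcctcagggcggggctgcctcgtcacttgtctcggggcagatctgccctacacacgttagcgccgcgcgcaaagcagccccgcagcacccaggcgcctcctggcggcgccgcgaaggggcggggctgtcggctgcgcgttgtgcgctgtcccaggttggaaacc
HLA-B: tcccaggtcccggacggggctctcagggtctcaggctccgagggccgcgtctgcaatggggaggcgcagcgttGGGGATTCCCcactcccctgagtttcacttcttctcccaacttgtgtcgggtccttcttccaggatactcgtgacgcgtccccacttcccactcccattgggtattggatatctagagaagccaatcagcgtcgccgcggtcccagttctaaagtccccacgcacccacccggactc
HLA-C: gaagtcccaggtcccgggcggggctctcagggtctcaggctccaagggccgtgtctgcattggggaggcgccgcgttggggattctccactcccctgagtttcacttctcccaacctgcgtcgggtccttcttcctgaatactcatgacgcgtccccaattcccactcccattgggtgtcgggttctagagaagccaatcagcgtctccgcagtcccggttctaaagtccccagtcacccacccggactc
B2M: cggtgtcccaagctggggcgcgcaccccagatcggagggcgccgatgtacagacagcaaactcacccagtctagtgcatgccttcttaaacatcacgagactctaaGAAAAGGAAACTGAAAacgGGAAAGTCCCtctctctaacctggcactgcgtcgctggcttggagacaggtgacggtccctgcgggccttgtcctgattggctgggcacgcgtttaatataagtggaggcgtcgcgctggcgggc
The *TAP1* and *PSMB9* windows shared 13 bases. *TAP1* held 1 match of the NF-kB type, read on the strand of the gene and beginning 72 bases before the start, and 2 overlapping matches of the ISRE type on the other strand, which together fill 1 run of capitals. *PSMB9* held no match to any of the motifs searched within its window. The 2 RefSeq start sites lay 488 bases apart, so these *TAP1* matches lay between the 2 starts, beyond the *PSMB9* window. *HLA-B* held 1 NF-kB type match, beginning 177 bases before the start, and *HLA-C* held none. *B2M* held 1 NF-kB type match on the other strand and 2 overlapping ISRE type matches.

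RefSeq windows of 300 bases (250 before and 50 after the start) were found for 8 of the 9 genes, 10 windows in all, the exception being *HLA-E*. The NF-kB type motif stood in windows of *HLA-B*, *TAP1* and *B2M*, while 5.68% of all 35116 windows held it. The ISRE type motif stood in windows of *TAP1*, *B2M*, *PSMB8*, *PSMB10* and *PSME2*, against 3.57% of all windows. TTCNNNGAA (the gamma-activated site, GAS, type) was matched in the second windows of *PSMB8* and *TAP1* (7.66% of all windows), and TGACGTCA (the cyclic AMP response element) in none of the 10 (1.85% of all windows). These are matches of letters and describe no binding.

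The libraries held between 22829189 and 31895061 read pairs assigned to genes (median 28233190). Levels are given as CPM, the count relative to the library size after scaling by trimmed mean of M values (TMM). TPM is used where genes are compared with each other. It divides by exon length and scales each library to its own length-adjusted total, without TMM. The 5 promyelocyte markers (*MPO*, *ELANE*, *AZU1*, *PRTN3*, *CTSG*) summed to 7316 to 8142 CPM in promyelocytes with vehicle and 6061 to 6961 CPM with TNF-α, against 2132 to 2345 and 2144 to 2351 CPM in granulocytes, where *ELANE* was at or under 3 read pairs. The 5 granulocyte markers (*ITGAM*, *CYBB*, *NCF1*, *CD38*, *FPR1*) summed to 133 to 143 and 245 to 263 CPM in promyelocytes, and to 4648 to 4907 and 5182 to 5515 CPM in granulocytes. Both marker sums followed the labels, with *MPO* transcript still abundant in granulocytes. Of 4 monocyte and macrophage markers, *CSF1R* made up most of a sum of 49.1 to 51.2 CPM in granulocytes with vehicle and 30.1 to 33.8 CPM with TNF-α, against at most 4.73 CPM in promyelocytes, with *CD163* and *MRC1* at or under 3 read pairs in every group. Its part in the results was not tested. As everywhere in bulk RNA, fewer cells of a type and less RNA per cell cannot be told apart.

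One library stood apart in MHC class II. Replicate 2 of the granulocytes with TNF-α held 187 read pairs over 7 genes (*HLA-DRA*, *HLA-DRB1*, *HLA-DPA1*, *HLA-DPB1*, *HLA-DQA1*, *HLA-DQB1* and *CD74*, the invariant chain), with 49 for *HLA-DRA* and 99 for *CD74*, whereas the other 11 libraries held 1 to 28 over the same genes. The granulocyte edgeR calls of the 9 genes, and the TNF-α calls of the pathway lists, were also computed without this library. The ratios, TPM, read shares, correlations between genes and *PSMB8-AS1* were not. The calls that changed without it, those of *B2M* and *PSMB9* and, outside the 9, of *PSMB6*, *PSMB7* and *CD74*, are given with their values.

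At vehicle, all 9 genes were higher in granulocytes than in promyelocytes, with differences from 0.82 (*PSMB8*) to 3.14 (*PSMB9*) on the log2 scale. All 9 passed an edgeR quasi-likelihood test at an adjusted p of 0.05, as did 72.0% of all 18124 genes tested, with 35.7% of all genes higher. The median of the 9 differences was 1.88, against 0.01 over all genes. Of 49 other genes of the pathway, in lists described below, 35 could be tested in this fit of all 12 libraries. Of these, 17 were higher and 13 lower at vehicle, with a median of 0.18, where 36.3% of all genes were lower. With TNF-α the 9 were again all higher, by 0.84 to 3.15, with a median of 1.91 against 0.07 over all genes, of which 72.0% passed (37.8% higher). In no gene of the 9 did a granulocyte library overlap a promyelocyte library, a separation shown by 74.4% of all genes at vehicle (37.3% higher, 37.1% lower) and 73.6% with TNF-α (38.6% higher, 34.9% lower). All 9 stayed past the threshold without any 1 of the 12 libraries.

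**Figure D1:**
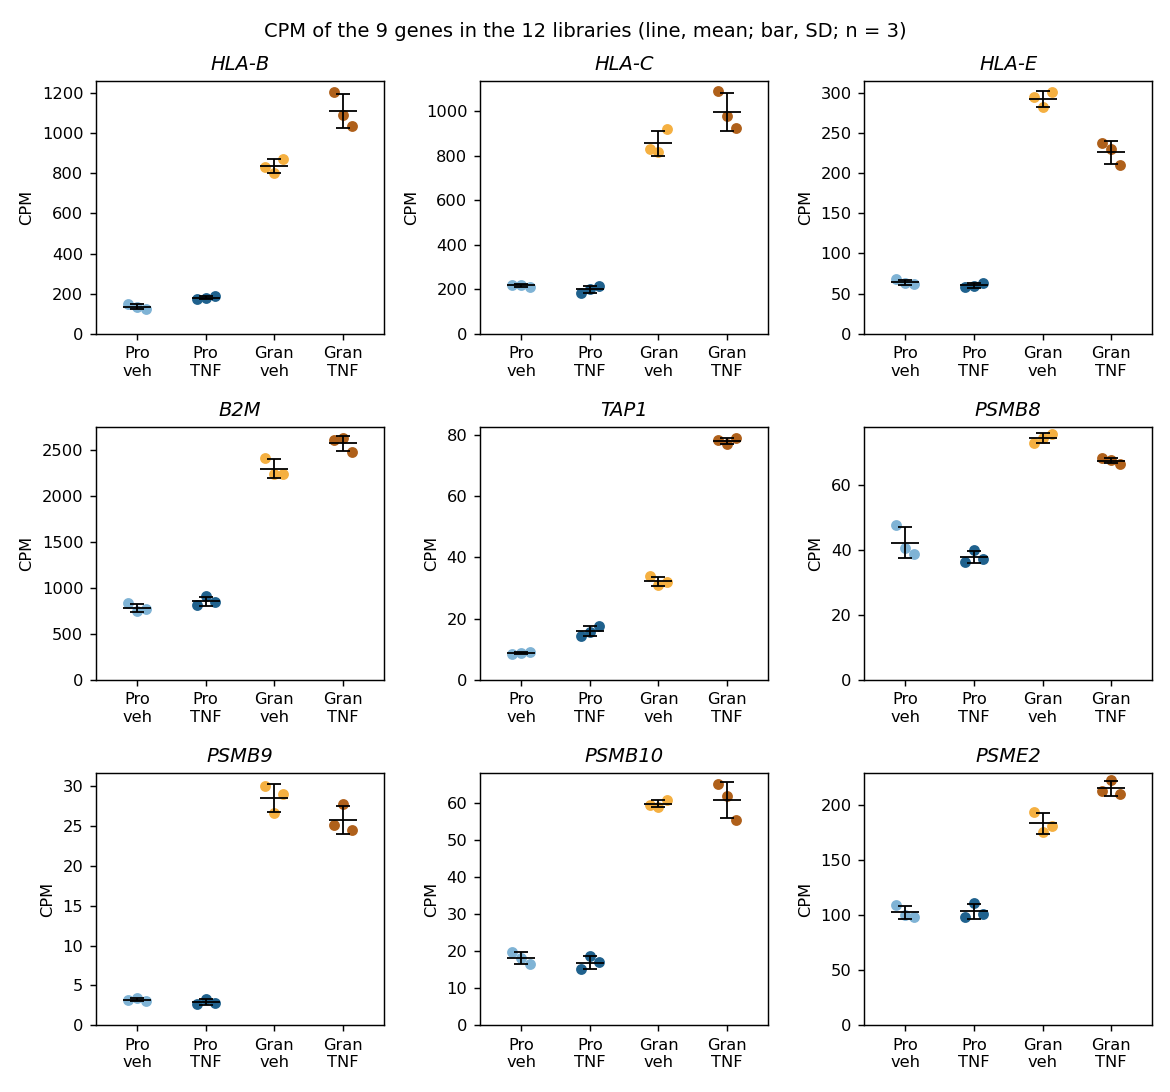
CPM (vertical axis, linear from 0) of the 9 genes in each of the 12 libraries, by group, with points for libraries, a line for the mean and bars for the SD of 3 flasks. Granulocyte libraries lie above promyelocyte libraries for every gene, and with TNF-α *TAP1* rises from 32.3 to 78.2 CPM in granulocytes while *HLA-E* falls from 292 to 226 CPM.

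The catalytic subunits of the immunoproteasome gave both ends of this range. *PSMB9* (also called LMP2), which takes the place of the constitutive subunit encoded by *PSMB6*, stood at 3.23, 3.46 and 3.04 CPM in promyelocytes with vehicle and at 30.0, 26.6 and 28.9 CPM in granulocytes with vehicle. Its difference of 3.14 (SE 0.102, adjusted p = 4.72e-20, edgeR) was the largest of the 9. *PSMB8* (LMP7), the replacement for *PSMB5*, stood at 47.6, 40.4 and 38.5 CPM against 72.9, 74.5 and 75.7 CPM, a difference of 0.82 (SE 0.0655, adjusted p = 1.24e-11). *PSMB10* (MECL-1), the replacement for *PSMB7*, stood at 19.8, 18.1 and 16.6 CPM against 59.4, 59.0 and 60.8 CPM, a difference of 1.71 (SE 0.0775, adjusted p = 6.01e-17). The groups were far apart in each case.

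By contrast, the 3 constitutive subunits were lower in granulocytes with vehicle than in promyelocytes with vehicle. *PSMB5* differed by -1.21, *PSMB6* by -1.04 and *PSMB7* by -1.15 (largest adjusted p = 2.15e-12, edgeR). The ratio of the immunoproteasome subunit to its counterpart within each library, in TPM, was therefore higher in granulocytes with vehicle than in promyelocytes with vehicle. *PSMB8* over *PSMB5* averaged 0.357 ± 0.00670 (SD, n = 3) in promyelocytes and 1.46 ± 0.102 in granulocytes. *PSMB8* thus stood below its counterpart in promyelocytes and above it in granulocytes. *PSMB9* over *PSMB6* averaged 0.0287 ± 0.00154 and 0.521 ± 0.0420, and *PSMB10* over *PSMB7* 0.116 ± 0.00282 and 0.846 ± 0.0239. In each pair the ratios of the 2 cell forms did not overlap.

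Among the remaining members the heavy chains differed most. *HLA-B* was higher in granulocytes by 2.62 (SE 0.0670), *HLA-E* by 2.19 (SE 0.0596) and *HLA-C* by 1.98 (SE 0.0670) at vehicle. *TAP1*, a subunit of the peptide pump, followed with 1.88 (SE 0.0779), *B2M*, the light chain of every class I molecule, with 1.56 (SE 0.0586), and *PSME2*, a subunit of the PA28 cap of the proteasome, with 0.84 (SE 0.0590). The largest adjusted p among these 6 was 8.04e-13 (edgeR).

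Per length, *B2M* was the most abundant of the 9 and *PSMB9* or *TAP1* the least. In promyelocytes with vehicle the order by mean TPM was *B2M* (369), *HLA-C* (250.1), *HLA-B* (128), *PSME2* (82.6), *HLA-E* (62.1), *PSMB8* (60.5), *PSMB10* (28.3), *TAP1* (5.53) and *PSMB9* (3.05). Only *HLA-E* and *PSMB8* were neighbors whose libraries overlapped, and with TNF-α the order and this overlap were the same in promyelocytes. In granulocytes with vehicle the order was *B2M* (1238), *HLA-C* (1119), *HLA-B* (898), *HLA-E* (323), *PSME2* (168), *PSMB8* (122), *PSMB10* (106), *PSMB9* (30.5) and *TAP1* (23.1), with no overlap between neighbors. *TAP1* thus stood above *PSMB9* in promyelocytes and below it in granulocytes, until TNF-α reversed that order to 47.1 against 23.1 TPM. With TNF-α in granulocytes the 3 most abundant genes came close, and the libraries of *B2M* (1161 TPM) and *HLA-C* (1093 TPM), and those of *HLA-C* and *HLA-B* (1002 TPM), overlapped, as did those of *PSMB8* and *PSMB10*. Together the 9 genes took 0.137% ± 0.00302 (SD, n = 3) of the read pairs of promyelocytes with vehicle and 0.489% ± 0.0139 of those of granulocytes with vehicle.

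**Figure D2:**
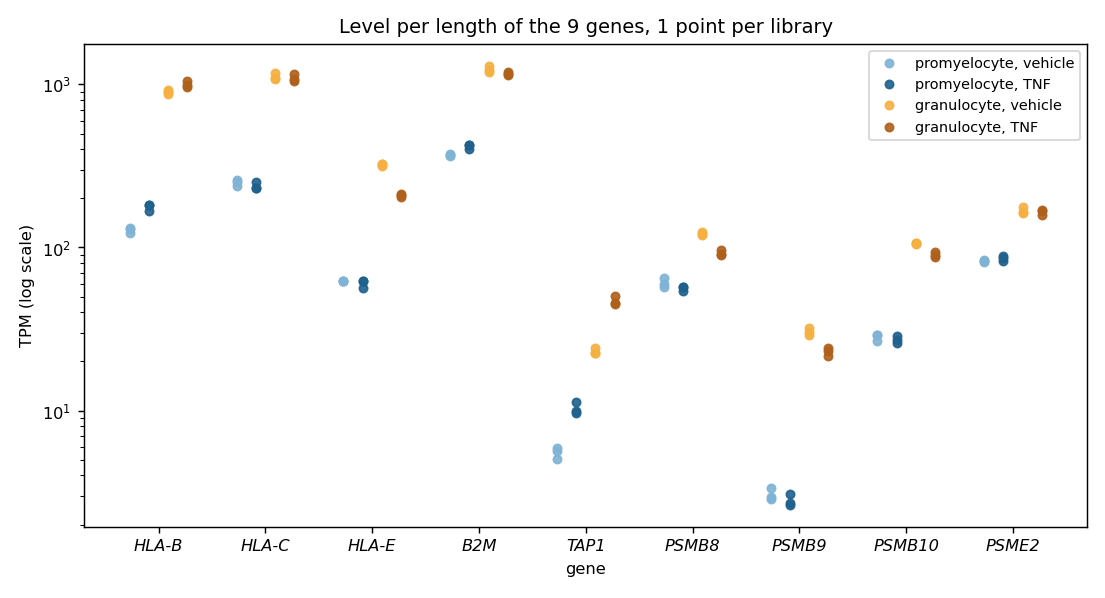
TPM (vertical axis, log scale) of the 9 genes, with 1 point per library and 1 color per group. *B2M* has the highest mean in every group, and *TAP1* lies below *PSMB9* in granulocytes with vehicle (23.1 against 30.5 TPM) and above it in the other 3 groups.

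To see which of the 9 answered TNF-α within 2 h, treated and vehicle flasks were compared in each cell form. Within promyelocytes, 2 of the 9 genes rose, *TAP1* and *HLA-B*, and none fell, where 14.8% of all 16250 genes tested passed (8.15% higher, 6.65% lower). In granulocytes 5 rose (*TAP1*, *HLA-B*, *PSME2*, *HLA-C*, *B2M*) and 2 fell (*HLA-E*, *PSMB8*), where 49.3% of all 16944 genes tested passed (24.4% higher, 24.8% lower). Over the 9 genes the median log2 fold change was -0.07 in promyelocytes, where all genes gave -0.0094, and 0.15 in granulocytes, where all genes gave -0.0046. The granulocyte counts depended on the scaling. With library totals alone in place of TMM, which moved the median of all genes to -0.13, 2 of the 9 rose in granulocytes (*TAP1* and *HLA-B*) and 3 fell (*HLA-E*, *PSMB8* and *PSMB9*), so that more fell than rose, and across all genes 2810 rose and 6233 fell where TMM gave 4136 and 4209. With GC and length trends taken out of each library, which moved the median to 0.12, those numbers were 6314 and 2720.

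**Figure D3:**
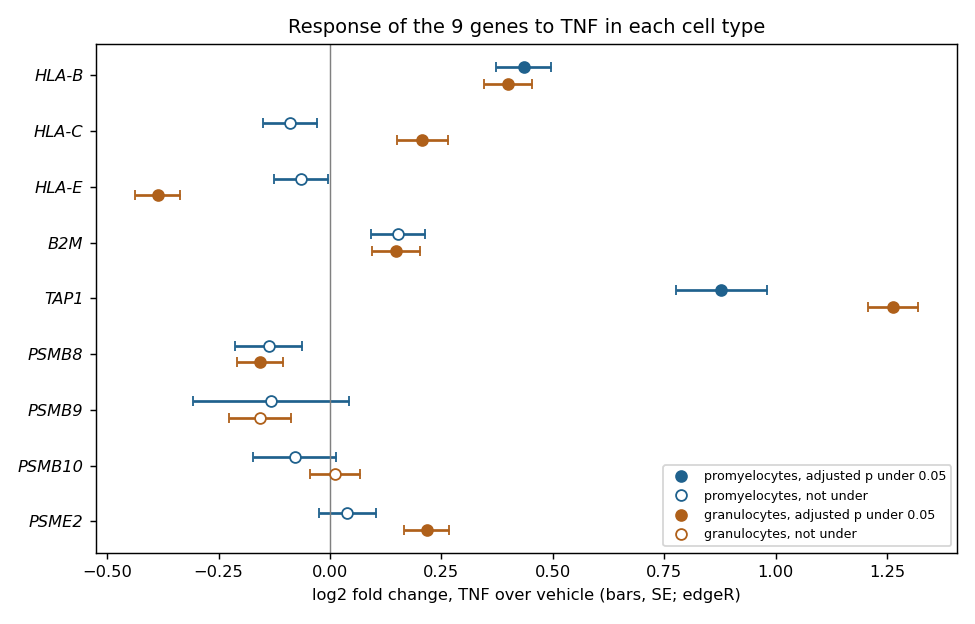
Log2 fold change, TNF-α over vehicle, of each of the 9 genes (edgeR, bars show the SE), in promyelocytes and granulocytes, with filled points where the adjusted p was under 0.05. *TAP1* lies farthest to the right in both forms (0.88 and 1.26), and *HLA-E* in granulocytes farthest to the left (-0.39).

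*TAP1* gave the largest response in both forms. In promyelocytes it rose from 8.49, 8.71 and 9.04 CPM with vehicle to 14.4, 15.4 and 17.6 CPM with TNF-α, and in granulocytes from 33.8, 30.9 and 32.1 CPM to 78.4, 77.0 and 79.0 CPM. Treated and vehicle libraries were far apart in both forms, and the treated promyelocytes stayed below the vehicle granulocytes. The log2 fold change was 0.88 (SE 0.102, adjusted p = 2.61e-06, edgeR) in promyelocytes and 1.26 (SE 0.0563, adjusted p = 8.34e-21) in granulocytes. Both calls held under each of 8 alternatives and without any 1 library. Such a separation of the 3 treated from the 3 vehicle libraries was shown by 30.9% of all genes in promyelocytes (13.7% higher, 17.1% lower) and 55.1% in granulocytes (28.4% higher, 26.7% lower), and among the 9 by 2 genes in promyelocytes and 7 in granulocytes. Of the 5 promoters shown above, those of *TAP1* and *B2M* held both NF-kB type and ISRE type matches. *B2M* had a log2 fold change of 0.15 in both forms. Whether such matches bear on the response was not tested.

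*HLA-B*, a classical heavy chain that presents peptides to CD8 T cells, also rose in both forms. In promyelocytes it went from 148, 134 and 125 CPM to 174, 178 and 189 CPM, and in granulocytes from 831, 801 and 870.1 CPM to 1205, 1092 and 1037 CPM. The groups did not overlap in either form. The log2 fold change was 0.43 (SE 0.0623, adjusted p = 3.75e-05) in promyelocytes and 0.40 (SE 0.0542, adjusted p = 8.88e-08) in granulocytes.

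*HLA-C*, the classical heavy chain that also serves as a main ligand of killer-cell immunoglobulin-like receptors, moved otherwise in promyelocytes. There it stood at 219.8, 220.1 and 211 CPM with vehicle and at 183, 203 and 215 CPM with TNF-α, and the groups overlapped (log2 fold change -0.09, SE 0.0615, adjusted p = 0.383). In granulocytes it rose from 829.6, 815 and 918 CPM to 1089, 977 and 922 CPM, without overlap but with the lowest treated library just above the highest vehicle library. That log2 fold change was 0.21 (SE 0.0568, adjusted p = 0.00255), and 0.08 (adjusted p = 0.233) with library totals alone. In TPM the means went the other way, from 1119 to 1093. The summed counts of *HLA-B* and *HLA-C* did not pass in promyelocytes (0.13, adjusted p = 0.145), but *HLA-C* is the more abundant there and weighs more in the sum, so the sum does not show whether the call of *HLA-B* depends on how reads were divided between them.

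*HLA-E*, a nonclassical heavy chain that presents leader peptides of other class I chains to NKG2 receptors, was the only heavy chain of the 3 to fall. In granulocytes it went from 295, 282 and 301 CPM to 237, 230.3 and 209.5 CPM, with no overlap (log2 fold change -0.39, SE 0.0506, adjusted p = 4.49e-08). In promyelocytes it stood at 67.8, 62.7 and 61.7 CPM with vehicle and 58.2, 59.0 and 63.4 CPM with TNF-α, where the groups overlapped (-0.07, SE 0.0612, adjusted p = 0.545). The fall in granulocytes passed under each of 8 alternatives, at -0.52 to -0.28, and without each of the 6 libraries in turn.

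*B2M* stood at 829.5, 744.9 and 763 CPM in promyelocytes with vehicle and at 813, 904 and 839 CPM with TNF-α. Those groups overlapped (log2 fold change 0.15, SE 0.0604, adjusted p = 0.0997). In granulocytes it stood at 2408, 2236 and 2239 CPM against 2604, 2627 and 2472 CPM, without overlap, and the change of 0.15 (SE 0.0534, adjusted p = 0.0198) passed. This was a call near the threshold. It was lost without vehicle replicate 2 (adjusted p = 0.0838), vehicle replicate 3 (adjusted p = 0.0814) or TNF-α replicate 2 (adjusted p = 0.103), the library with class II read pairs, and with library totals alone the change was 0.02 (adjusted p = 0.792). In TPM, scaled to the length-adjusted total of each library without TMM, *B2M* averaged 1238 and 1161 in granulocytes, the other way round.

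None of the 3 immunoproteasome subunits rose in either form. *PSMB8* stood at 36.3, 39.9 and 37.0 CPM in promyelocytes with TNF-α, overlapping the vehicle libraries given above (log2 fold change -0.14, SE 0.0748, adjusted p = 0.255). In granulocytes it fell from 72.9, 74.5 and 75.7 CPM to 68.1, 67.6 and 66.4 CPM, a small change without overlap (-0.16, SE 0.0519, adjusted p = 0.0117). That call was lost with GC and length trends taken out (-0.02, adjusted p = 0.732) and when all 12 libraries shared 1 fit (-0.14, adjusted p = 0.0782).

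*PSMB9* stood at 2.63, 3.32 and 2.77 CPM in promyelocytes with TNF-α, overlapping vehicle (-0.13, SE 0.175, adjusted p = 0.681). In granulocytes with TNF-α it stood at 25.0, 27.7 and 24.4 CPM, again overlapping vehicle (-0.16, SE 0.0704, adjusted p = 0.0627). It passed without TNF-α replicate 2 (-0.22, adjusted p = 0.0306) or vehicle replicate 2 (-0.20, adjusted p = 0.0376). With library totals alone it was -0.29 (adjusted p = 0.0011), and with GC and length trends taken out 0.01.

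*PSMB10* stood at 15.1, 18.6 and 17.04 CPM in promyelocytes with TNF-α (-0.08, SE 0.0940, adjusted p = 0.639) and at 65.0, 61.9 and 55.5 CPM in granulocytes with TNF-α (0.01, SE 0.0570, adjusted p = 0.888). Both groups spanned or overlapped their vehicle libraries. Of the 3 subunits *PSMB9* in promyelocytes was the least precise, with 70 to 99 read pairs per library.

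*PSME2* stood at 109.7, 99.96 and 98.0 CPM in promyelocytes with vehicle and at 98.0, 111 and 102 CPM with TNF-α, overlapping (0.04, SE 0.0630, adjusted p = 0.739). In granulocytes it rose from 194, 176 and 181 CPM to 213, 223 and 209.9 CPM, without overlap (0.22, SE 0.0495, adjusted p = 0.000373). With library totals alone that change was 0.09 (adjusted p = 0.149), and in TPM the means were 168 and 166.

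Whether the response differed between the cell forms was tested by the interaction term of 1 edgeR fit of all 12 libraries. For 3 of the 9 genes it passed, as for 24.0% of all 18124 genes tested (14.1% with the larger value in granulocytes, 9.88% with the smaller). *TAP1* responded more in granulocytes, by 0.42 (SE 0.106, adjusted p = 0.00399), and *HLA-C* by 0.34 (SE 0.0917, adjusted p = 0.00789). *HLA-E*, which fell in granulocytes and did not pass in promyelocytes, had the lower value in granulocytes, by -0.28 (SE 0.0821, adjusted p = 0.0122). All 3 passed without any 1 library, while with library totals alone *TAP1* (0.27, adjusted p = 0.0644) and *HLA-C* (0.18, adjusted p = 0.0996) did not. For *HLA-B* the difference was 0.0046 (SE 0.0898, adjusted p = 0.982), for *PSME2* 0.22 (SE 0.0831, adjusted p = 0.0609, past the threshold without promyelocyte vehicle replicate 3 or promyelocyte TNF-α replicate 2), and for the other 4 between 0.01 and 0.13. Over all genes 2561 differences were higher and 1790 lower in granulocytes, a balance that turned with the processing: 2128 and 2266 with size factors of DESeq2, 1991 and 2518 without the expression filter, 1942 and 2299 with DESeq2, 1570 and 3529 with library totals alone, and 4020 and 977 with GC and length trends taken out.

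Ratios within a library do not depend on how libraries are scaled. *TAP1* and *PSMB9*, neighbors whose RefSeq starts point away from each other, parted with TNF-α. This pair and the next were chosen after their values were seen, so the ratios are a description without a test. The ratio of their read pair counts was 2.63, 2.52 and 2.98 in promyelocytes with vehicle and 5.46, 4.65 and 6.34 with TNF-α, and it was 1.13, 1.16 and 1.11 in granulocytes with vehicle and 3.13, 2.78 and 3.24 with TNF-α. Treated and vehicle libraries did not overlap in either form. The ratio of *HLA-B* to *HLA-C* was 0.674, 0.611 and 0.592 against 0.950, 0.876 and 0.881 in promyelocytes, and 1.00, 0.983 and 0.947 against 1.11, 1.12 and 1.13 in granulocytes, again without overlap.

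The ratios of immunoproteasome to constitutive subunits were compared between TNF-α and vehicle by 2-sided exact permutation tests, whose smallest possible p with 3 against 3 is 0.1, so that none could reach 0.05. In granulocytes *PSMB8* over *PSMB5* was 1.35, 1.53 and 1.51 with vehicle and 1.12, 1.13 and 1.13 with TNF-α (log2 difference -0.38, exact permutation p = 0.1, 0.2 after Benjamini-Hochberg adjustment over the 6 tests). *PSMB9* over *PSMB6* was 0.550, 0.540 and 0.473 against 0.369, 0.418 and 0.420 (-0.37, exact permutation p = 0.1, adjusted 0.2), and *PSMB10* over *PSMB7* overlapped between the groups (-0.12, exact permutation p = 0.2, adjusted 0.24). For the first 2 ratios every treated granulocyte library thus lay below every vehicle library. In promyelocytes *PSMB8* over *PSMB5* was 0.358, 0.351 and 0.364 with vehicle and 0.342, 0.318 and 0.293 with TNF-α, also without overlap (-0.17, exact permutation p = 0.1, adjusted 0.2). The other differences there were -0.11 for *PSMB9* over *PSMB6* (exact permutation p = 0.3, adjusted 0.3) and -0.09 for *PSMB10* over *PSMB7* (exact permutation p = 0.2, adjusted 0.24).

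**Figure D4:**
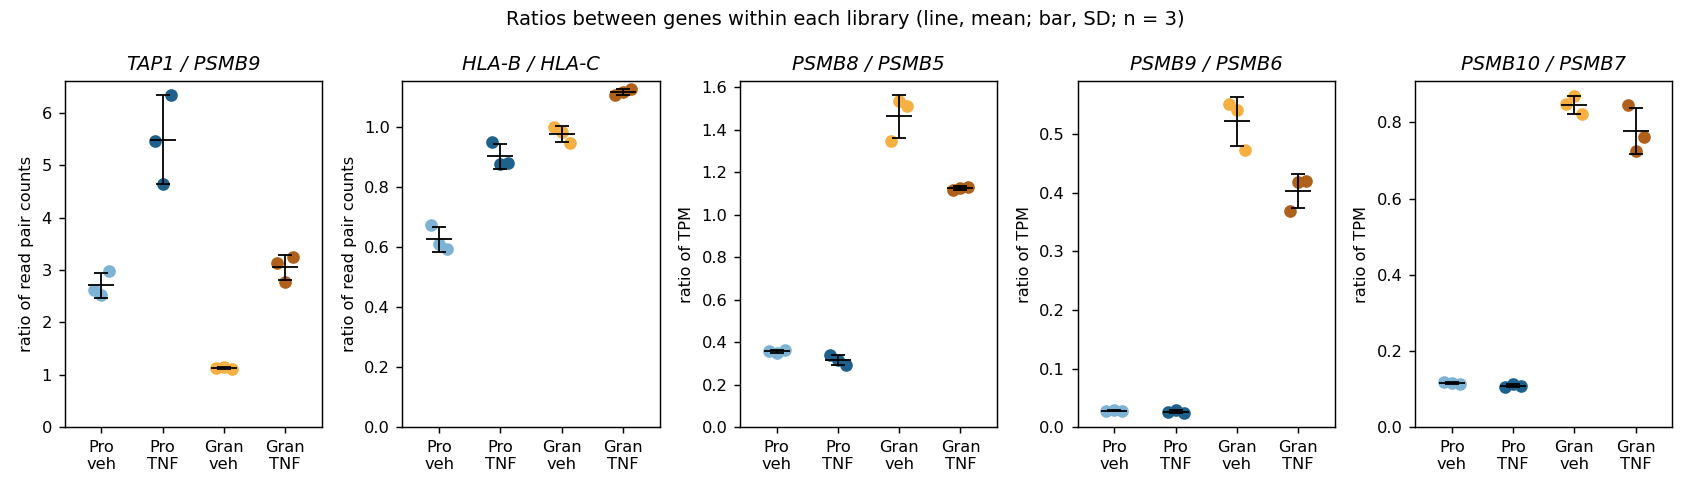
Ratios within each library (vertical axes, from 0) of read pair counts for *TAP1* over *PSMB9* and *HLA-B* over *HLA-C*, and of TPM for the 3 immunoproteasome subunits over their constitutive counterparts, with points for libraries, lines for means and bars for the SD of 3 flasks. *TAP1* over *PSMB9* goes from a mean of 1.13 to 3.05 in granulocytes with TNF-α, while *PSMB8* over *PSMB5* goes from 1.46 to 1.13.

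The antisense gene *PSMB8-AS1*, which overlaps *PSMB8* and *TAP1* on the opposite strand and was looked at after its values were seen, fell in granulocytes from 17.6, 18.2 and 18.9 CPM to 8.77, 6.80 and 7.32 CPM. That is a log2 fold change of -1.28 (SE 0.0963, adjusted p = 5.2e-14, edgeR). In promyelocytes it stood at 3.33, 2.87 and 3.04 CPM against 2.52, 1.86 and 2.08 CPM, without overlap and not past the threshold (-0.50, SE 0.191, adjusted p = 0.0922). Counting used the strand, so its read pairs are separate from those of *PSMB8* and *TAP1*.

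The other genes of the pathway were 49 in 8 lists, of which 34 could be tested in each form. In promyelocytes 10 rose and 2 fell, and in granulocytes 19 rose and 5 fell, with medians of 0.04 and 0.19 against -0.0094 and -0.0046 over all genes. Of all genes tested, 14.8% passed in promyelocytes (8.15% higher, 6.65% lower) and 49.3% in granulocytes (24.4% higher, 24.8% lower). The counts for single lists below are to be read beside these same shares. With library totals alone 7 rose and 8 fell in granulocytes, and with GC and length trends taken out 25 rose and 3 fell there, and 11 rose and 3 fell in promyelocytes.

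Among other class I heavy chains, *HLA-F* and *HLA-G* held at most 1 read pair in any library. Of 6 peptide loading genes 1 rose in promyelocytes and 3 in granulocytes, and none fell. *TAPBP*, which encodes tapasin, the bridge between TAP and empty class I molecules, rose by 0.53 and 0.59 (adjusted p = 3.48e-06 and 8.09e-12). *TAP2*, the partner of *TAP1* in the peptide pump, rose in granulocytes (0.23, adjusted p = 0.00237), where *TAP1* changed by 1.26, and stood at 0.13 in promyelocytes (adjusted p = 0.264). The chaperone genes *CALR* and *CANX* did not pass in either form (0.02 to 0.08), and *PDIA3*, encoding a thiol oxidoreductase of the loading complex, rose in granulocytes (0.21). These granulocyte values moved with the scaling. With library totals alone *TAP2* (0.095, adjusted p = 0.194) and *PDIA3* (0.078, adjusted p = 0.166) did not pass and *CANX* was lower (-0.11, adjusted p = 0.0495), whereas with GC and length trends taken out *CALR* (0.19, adjusted p = 0.000574) and *CANX* (0.20, adjusted p = 0.000558) were higher.

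Of the 2 peptide trimming aminopeptidases, *ERAP1* rose in promyelocytes (0.44, adjusted p = 0.000668) and *ERAP2* fell in granulocytes (-0.22, adjusted p = 0.000288), a call lost with GC and length trends taken out (-0.02). None of the 5 activators and assembly factors of the proteasome passed in promyelocytes. In granulocytes 4 of the 5 rose, by 0.22 to 0.29, among them *PSME1*, the partner of *PSME2* in PA28 (0.24), and *POMP*, the proteasome maturation protein (0.24). The 3 constitutive catalytic subunits rose in granulocytes by 0.14 to 0.22 and not in promyelocytes (-0.03 to 0.04). With library totals alone all 3 were short of the threshold (0.01 to 0.09), as were 3 of the 4 activators and assembly factors, and *PSMB6* and *PSMB7* were also lost without single libraries, among them TNF-α replicate 2 (0.19, adjusted p = 0.0845 and 0.073, adjusted p = 0.383).

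Of 9 transcription regulators of class I genes, 4 rose and 1 fell in promyelocytes, and 5 rose and 2 fell in granulocytes. *NFKB1*, encoding the NF-kB subunit p50, rose by 1.38 and 2.02 (adjusted p = 2.77e-12 and 1.76e-28), and *RFX5*, part of the complex that binds class I and class II promoters, by 0.46 and 0.64. The other RFX genes of this list did not rise. *RFXAP* fell in granulocytes (-0.61, adjusted p = 8.29e-06, edgeR) and did not pass in promyelocytes (-0.18, adjusted p = 0.275). *RFXANK* passed in neither form (0.05 in promyelocytes and 0.02 in granulocytes). *NLRC5*, the class I transactivator, fell in both forms, from a mean of 77.0 to 52.1 CPM in promyelocytes (-0.54, adjusted p = 6.02e-06) and from 80.1 to 61.7 CPM in granulocytes (-0.39, adjusted p = 5.79e-08). *IRF1*, an interferon-regulated activator of the pathway, stood at 0.13 (adjusted p = 0.336) and 0.0012 (adjusted p = 0.986), but passed as higher in promyelocytes with GC and length trends taken out (0.21, adjusted p = 0.044) and as lower in granulocytes with library totals alone (-0.13, adjusted p = 0.0205). *IRF2*, another interferon regulatory factor, rose by 0.61 in promyelocytes and by 0.26 in granulocytes, where it did not pass with library totals alone.

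Interferon transcripts were at most 7 read pairs in any library. *IFNB1* held 1 read pair in each promyelocyte library with vehicle, 3, 6 and 7 with TNF-α, and 0 in all granulocyte libraries, each at a floor of 3 read pairs or little above it and too low to be tested, and *IFNG* held 1 read pair in 1 library. Of the 4 interferon receptor genes, *IFNGR2*, the signaling chain of the interferon gamma receptor, rose by 1.28 and 2.09 (adjusted p = 2.3e-12 and 1.45e-29), and *IFNGR1* did not pass (-0.10 and 0.05), although with GC and length trends taken out it passed as lower in promyelocytes (-0.17, adjusted p = 0.0318) and as higher in granulocytes (0.29, adjusted p = 1.14e-06).

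Of 14 class II and related genes 10 were too low to be tested in each form. *CIITA*, the class II transactivator, rose in promyelocytes from 1 read pair in each vehicle library to 27, 17 and 22 (adjusted p = 2.4e-05), a ratio of 22.3 per total count with a 95% counting interval from 7.29 to 111. In granulocytes *CIITA* was too low to be tested, though its treated libraries lay above its vehicle libraries. Its interaction did not pass (-2.31, SE 1.34, adjusted p = 0.231, edgeR), so the rise is not shown to differ between the forms. *CD74* passed in granulocytes, with 3, 2 and 22 read pairs at vehicle and 28, 99 and 8 with TNF-α (2.48, adjusted p = 0.000212), but the groups overlapped and the call was lost without TNF-α replicate 2 (1.36, adjusted p = 0.0636). *MR1*, a class I-like gene that presents microbial vitamin B metabolites, fell in granulocytes (-0.53, adjusted p = 6.26e-11) and, at the threshold, in promyelocytes (-0.26, adjusted p = 0.0499), a call lost without any 1 of the 6 libraries.

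**Figure D5:**
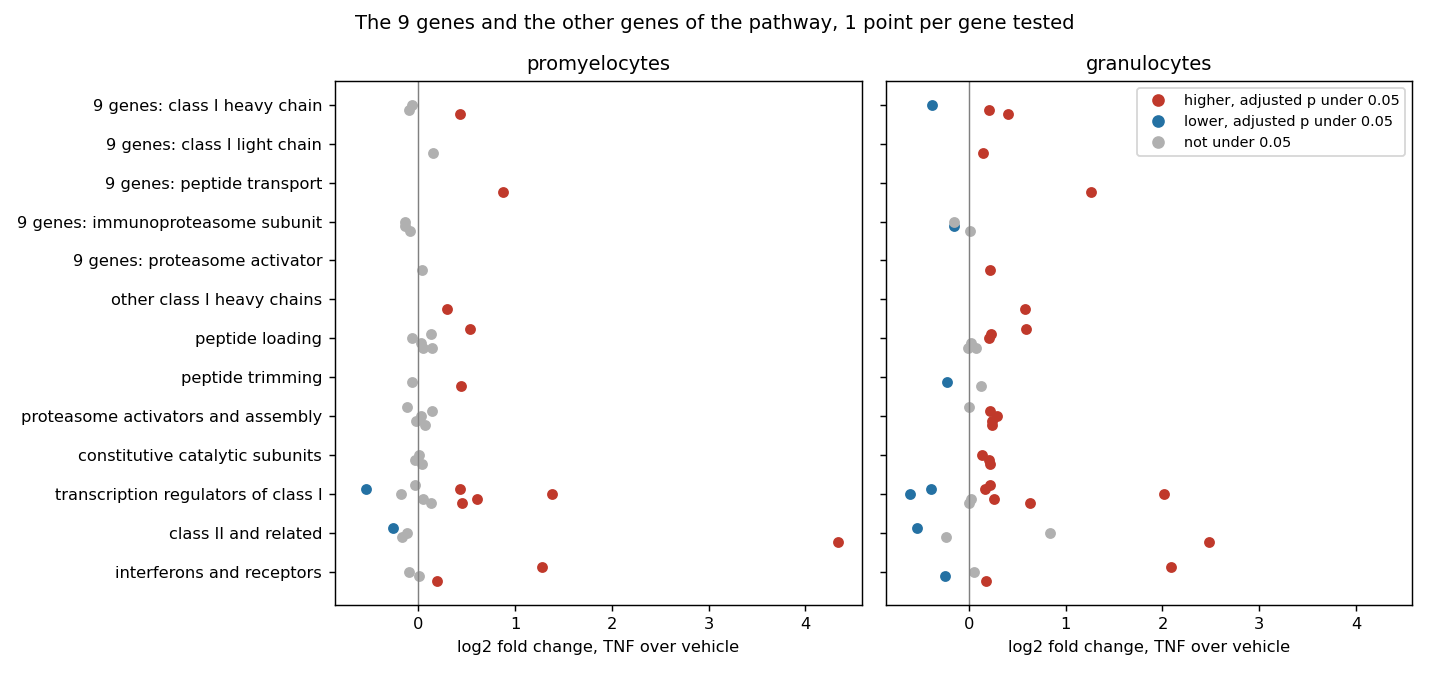
Log2 fold change, TNF-α over vehicle (horizontal axis, edgeR), of the 9 genes and the tested genes of the 8 other pathway lists (rows), in promyelocytes and granulocytes, 1 point per gene, red where higher and blue where lower at an adjusted p under 0.05. Peptide transport and the regulator *NFKB1* lie to the right in both forms, the point near 4.34 in promyelocytes is *CIITA*, and the immunoproteasome subunits lie near 0.

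Genes whose pattern over the 12 libraries was most like that of 3 of the 9 were sought among 11791 genes by Pearson's r of log2 CPM. The libraries fall into 2 clusters by cell form, which most of these correlations reflect, so the values are a description. For *TAP1* the closest were *BTN2A1*, *PLEK* and *SPACA6* (r = 0.997, 0.997 and 0.996). For *B2M* they were *LST1*, *MYL6* and *ARPC5* (each r = 0.998), and for *PSMB10* *CST3*, *KCTD5* and *IFI6* (r = 0.999, 0.998 and 0.998).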

How the data were processed

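Paired-end, ribosomal RNA-depleted RNA-seq of 12 HL-60/S4 libraries (4 groups, 3 flasks each) was analysed. The deposited values are read pair counts per gene: per the file headers and the submitters' processing notes, the authors checked reads with FastQC 0.11.4, mapped them with STAR 2.5.3a to hg38 and counted fragments with featureCounts 1.5.2 by strand over GENCODE exons, primary alignments only and without chimeric pairs; reads that fit several places equally well thus count once, at the place chosen by the aligner, which bears on the HLA genes. The notes also name DESeq2 1.16.1 for the authors' own tests, which were not used here. Symbols were matched for 57577 of 58288 identifiers.

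The members and lists were chosen with earlier results of these data known. Counts were tested with edgeR 4.0.16 (R 4.3.3; TMM, filterByExpr with a minimum count of 10 and total of 15, quasi-likelihood test, Benjamini-Hochberg adjusted p under 0.05), each cell form alone for TNF-α and all 12 libraries with 4 groups for the interaction and the levels. CPM are counts over TMM library sizes of the 12-library fit, and TPM use the exon lengths in the count table. SD is over the 3 flasks of a group. SE is instead the error of an edgeR log2 difference, and it rests on all libraries of that fit. The named genes were the 9, the fixed pathway lists by count with values for those past the threshold or of a named role, the 3 genes most like *TAP1*, *B2M* and *PSMB10* (mean log2 CPM not under 1) and motif matches in RefSeq promoter windows; what was added after values were seen is named as such. Replicate pairs differed beyond sampling noise in every group, so none was merged. Replicate numbers did not pair the libraries. Alternatives were DESeq2 size factors, DESeq2 1.42.0, no filter, a replicate block, 1 fit of all libraries, *HLA-B* and *HLA-C* summed and each library left out, and, chosen after seeing the data, library totals without TMM and removal of GC content and length trends. Values of some pathway genes are not reported here. Scripts were tested on simulated counts. Counting intervals and the floor of 3 read pairs cover counting error only.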

Additional observations from a re-analysis of the deposited data

Results flagged for a closer look

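The response to TNF-α differed between granulocytes and promyelocytes for 3 of the 9 genes, by the interaction term of the 12-library edgeR fit, whereas 24.0% of all genes tested differed. The difference, granulocytes minus promyelocytes on the log2 scale, was 0.42 for *TAP1*, 0.34 for *HLA-C* and -0.28 for *HLA-E*. *TAP1* rose in both forms, *HLA-C* rose in granulocytes and stood at -0.09 in promyelocytes, and *HLA-E* fell in granulocytes and stood at -0.07 in promyelocytes. The 2 forms were treated in separate experiments, which cannot be told apart from the forms.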

How the results depend on the processing

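All 9 level differences between the cell forms kept their direction and call under each alternative and without each library (9 to 9 higher, 0 to 0 lower). Counts of the 9 that moved were as follows. In promyelocytes, *HLA-B* and *HLA-C* summed left 1 higher, not 2, a sum in which the more abundant *HLA-C* weighs more and which says nothing of how reads were divided. In granulocytes, library totals without TMM left 2 higher, not 5, and 3 lower, not 2 (*PSMB9* added), and GC content and length trends removed, or all 12 libraries in 1 fit, left 1 lower, not 2. For the interaction, GC content and length trends removed gave 4 higher (*B2M* 0.28 and *PSME2* 0.29 added) and library totals 0, not 2. Of the other pathway genes in promyelocytes 1 fell, not 2, with size factors of DESeq2, with DESeq2 and with the replicate block, while with GC content and length trends removed 11 rose, not 10, and 3 fell. In the other cases the cause was not tested. Without single libraries 2 to 2 of the 9 rose and 0 to 0 fell in promyelocytes, 4 to 5 rose and 2 to 3 fell in granulocytes, and 2 to 3 interactions were higher and 1 to 1 lower, while of the pathway genes 9 to 10 rose and 1 to 2 fell in promyelocytes, and 16 to 19 rose and 5 to 5 fell in granulocytes. Signs turned for values that had not passed. With GC content and length trends removed these were, in promyelocytes, *HLA-C* 0.024, *HLA-E* 0.030 and *PSMB10* 0.040, and in granulocytes *PSMB9* 0.014. *PSMB10* was -0.12 in granulocytes with library totals. The sum of *HLA-B* and *HLA-C* was 0.13 in promyelocytes, which gives no sign for *HLA-C* itself. The interaction of *HLA-B* was -0.046 (size factors of DESeq2), -0.080 (no filter), -0.054 (DESeq2), -0.029 (GC content and length) and -0.15 (library totals). For *B2M* it was -0.017, -0.050 and -0.025 in the first 3 and -0.12 with library totals, for *PSMB8* -0.031, -0.065, -0.039 and -0.14, for *PSMB9* -0.040, -0.074, -0.048 and -0.14, and for *PSMB10* -0.026 with library totals. Without single libraries, *PSME2* in promyelocytes ranged from -0.012 to 0.078, *PSMB10* in granulocytes from -0.032 to 0.076, and the interactions from -0.062 to 0.060 (*HLA-B*), -0.014 to 0.078 (*B2M*), -0.076 to 0.081 (*PSMB8*) and -0.052 to 0.11 (*PSMB9*). Same-numbered treated and vehicle libraries did not deviate together (r from -0.146 to -0.0129, against 0.0422 and 0.0243 for different numbers), so the numbers do not pair them. With the number as a replicate block 2 of the 9 rose and 0 fell in promyelocytes, and in granulocytes 4 rose and 2 fell, *B2M* being lost (0.15, adjusted p = 0.0824). With DESeq2, *B2M* also passed in promyelocytes (0.16, adjusted p = 0.0442). Depth limits *PSMB9* in promyelocytes and the interferon and class II genes.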
